A study of Mus musculus with 6 samples.

Results

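The genes described here build the hair bundle of the inner ear's sensory hair cells, move its cargo or the cell body, or release transmitter at its ribbon synapse. The set named 10 genes, Cdh23, Fscn2, Myo7a, Myo6, Myo15, Tmc1, Otof, Ush1c, Espn and Slc26a5, and took every probe set annotated with exactly 1 of these symbols, dim ones included. This gave 14 of the 22626 probe sets of the table, for 9 of the 10 genes. No probe set used here carried the symbol Fscn2, which is therefore not analysed. The 9 genes stand among 12393 that had a probe set of their own.

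Cochleae came from male DBA/2J mice, at 36 weeks of age in 3 samples and at 7 weeks in 3 samples. DBA/2J is an inbred strain that loses hearing early, and both ages carry its hearing-loss alleles of Cdh23 and Fscn2, so the comparison is one of age and not of genotype. Total RNA of each sample was hybridised as biotin-labelled cRNA to 1 single-colour Affymetrix array. The labels do not say whether the samples came from separate animals, so p-values measure the spread between these samples, which may be technical, and 3 arrays per age limit the precision of every value.

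A hair cell detects sound with a bundle of actin-filled stereocilia joined by tip links. Tension on a tip link opens the transduction channel, and myosins carry bundle proteins along actin and anchor the links. Inner hair cells release glutamate continuously at ribbon synapses, whereas outer hair cells change length with voltage and so amplify sound. Hair cells are a very small share of cochlear tissue, and loss of function of many of these genes causes deafness in mice and humans.

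The promoters of Ush1c and Myo6 are shown because these genes had the largest called differences among the members. They run from 250 bases before to 50 after the annotated start, from RefSeq on build GRCm38.p6, with Ush1c at chr7:46238441-46238740 on the minus strand and Myo6 at chr9:80164784-80165083 on the plus strand. Capitals mark matches on either strand to a GC box, spelled GGGCGG. They also mark the box named for its letters, CCAAT. The last motif searched on both strands was the TATA box, here TATAAA.
Ush1c: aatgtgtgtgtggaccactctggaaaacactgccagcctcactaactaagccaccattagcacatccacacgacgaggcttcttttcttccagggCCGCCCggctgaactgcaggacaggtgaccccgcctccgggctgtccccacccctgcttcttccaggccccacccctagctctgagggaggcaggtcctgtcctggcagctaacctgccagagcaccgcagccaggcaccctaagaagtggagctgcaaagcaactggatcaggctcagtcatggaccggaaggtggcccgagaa
Myo6: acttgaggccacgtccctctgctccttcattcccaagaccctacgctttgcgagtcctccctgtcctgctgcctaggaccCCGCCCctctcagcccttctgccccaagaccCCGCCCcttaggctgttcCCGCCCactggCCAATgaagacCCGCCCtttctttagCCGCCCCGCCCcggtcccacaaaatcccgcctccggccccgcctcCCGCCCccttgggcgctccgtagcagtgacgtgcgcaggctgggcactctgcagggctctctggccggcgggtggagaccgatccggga
The Ush1c window held 1 GC box and no other searched motif. The Myo6 window held 7 GC boxes, of which 1 pair overlapped, and 1 CCAAT box. Of 32851 promoter windows of this length in the table, 35.7% held a GC box, 37.4% a CCAAT box and 13.6% a TATA box. Promoters were listed for 9 of the 10 genes, Otof being the exception. Their 12 windows held a GC box in 7, a CCAAT box in 5 and a TATA box in 1.

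The members did not move as one group. Ush1c, the brighter Myo6 probe sets and Otof were lower at 36 weeks by the main test, Otof only narrowly. Tmc1, Myo7a and Myo15 did not pass the test, and Cdh23, Espn and Slc26a5 were too dim to be tested in the main comparison. Values are linear signals, and log2 differences are those of log2(signal + 50) between 36 weeks and 7 weeks, positive where 36 weeks was higher, with a standard error (SE) after each and n = 3 for both ages. The main test took in a probe set if its average of 6 arrays exceeded a signal of 594, the 40th percentile. Of the 14 member probe sets 7 were above it, the nearest being Myo7a at 652, and 7 were below it, the nearest being the dimmest Myo6 probe set at 492. By limma with a Benjamini-Hochberg adjusted p under 0.05, 4 of the 7 were called, all lower at 36 weeks. Over all 13575 tested probe sets 34.4% were called, with 17.7% lower and 16.7% higher. The median log2 difference was -0.40 over the 7 member probe sets and 0.018 over all that were tested. The 7 passed a filter on brightness, so their count and median do not speak for all 14. Ush1c passed it only through its 7-week arrays, since all of its signals at 36 weeks were below 594. In the fit without a filter its limma adjusted p was 0.0029.

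**Figure D1:**
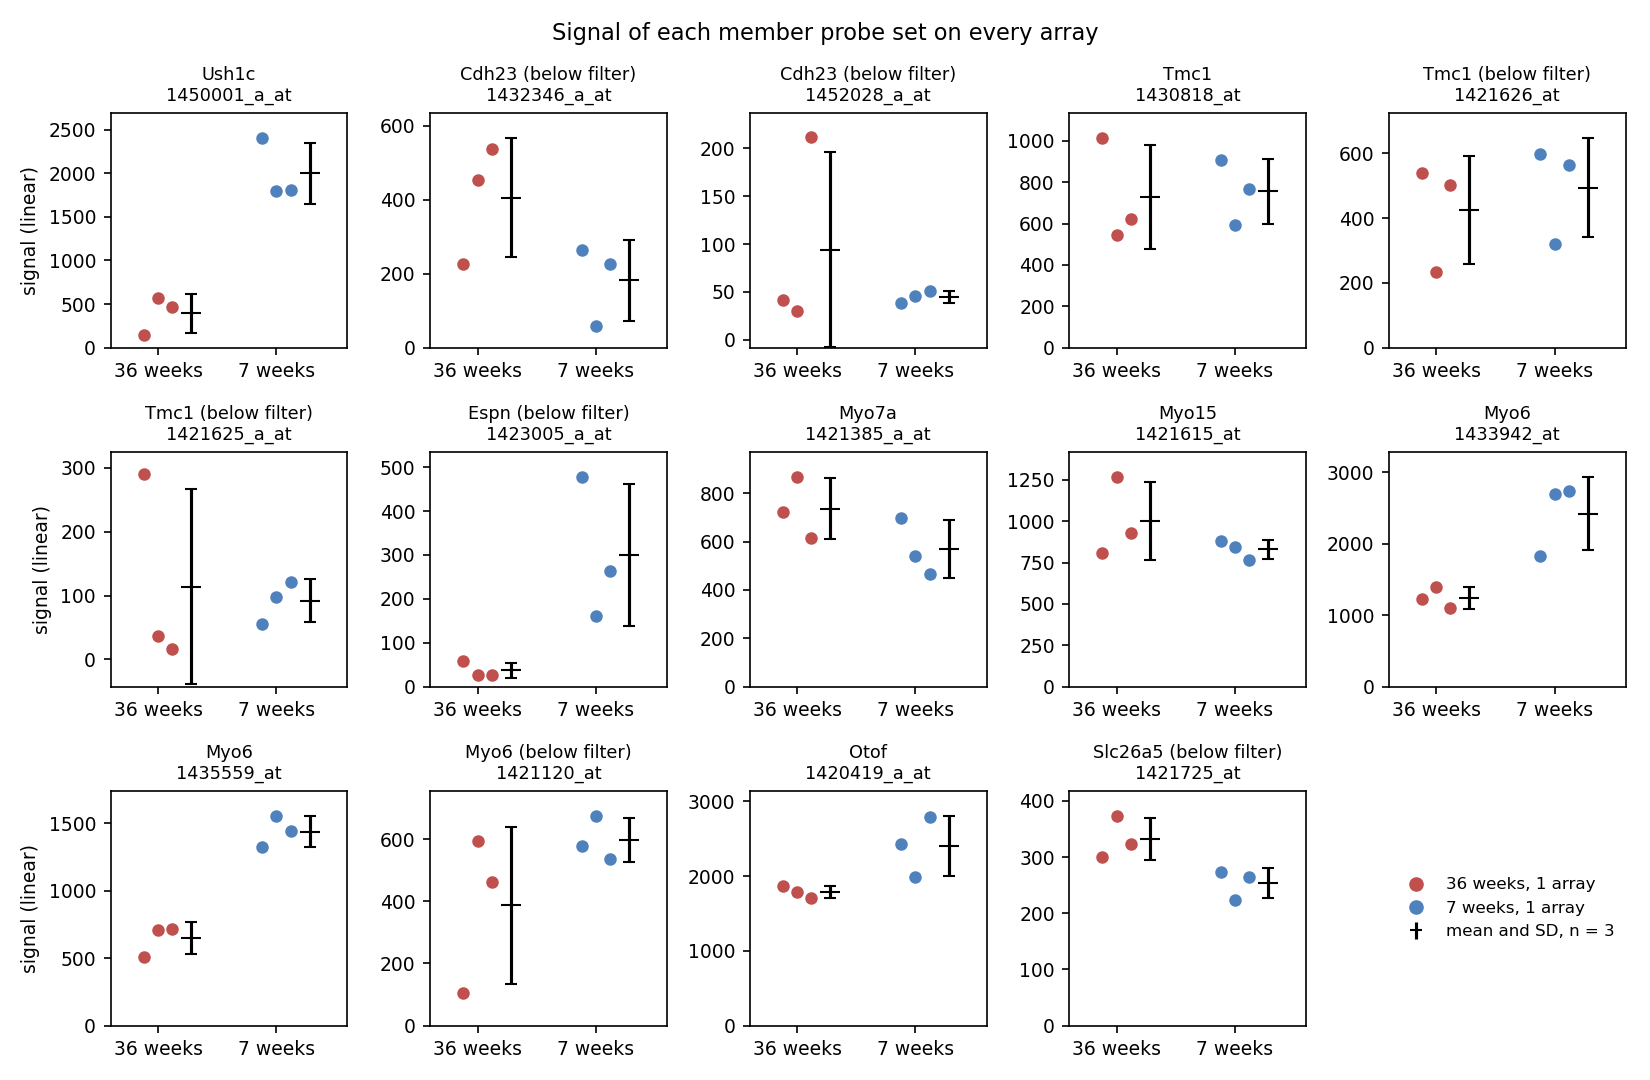
Linear signal of each of the 14 member probe sets on every array, 36 weeks left of 7 weeks, with points for single arrays and bars for the mean and SD (n = 3). The arrays of the ages do not overlap for Ush1c, Espn, 2 Myo6 probe sets, Otof and Slc26a5. The vertical scale differs between panels.

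The arrays of the ages did not overlap for 6 of the 14 member probe sets, 5 of them lower and 1 higher at 36 weeks. Over all 22626 probe sets 37% did not overlap, 17.8% lower and 19.2% higher.

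Ush1c encodes harmonin, the scaffold that anchors the upper end of the tip link. It had the largest called difference of the members. Its signals were 145, 575 and 465 at 36 weeks, against 2403, 1795 and 1805 at 7 weeks. All 3 arrays of 36 weeks were far below all 3 of 7 weeks, with the first of them lowest. The mean was 395 ± 223 at 36 weeks and 2001 ± 348 at 7 weeks (SD, n = 3 each), a 5.06-fold lower signal. The log2 difference was -2.35 ± 0.38 (SE), with an adjusted p of 0.00081 by limma. The 9 pairings of an old with a young array gave ratios of 0.0605 to 0.321. Because the signals at 36 weeks were dim, the size depends on the offset, and it was -2.54 with an offset of 1.

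Cdh23 encodes cadherin 23, the upper strand of the tip link and the gene of the strain's ahl allele. Both of its probe sets were below the brightness filter. The brighter one read 227, 454 and 538 at 36 weeks, against 263, 57.6 and 227 at 7 weeks. The ages overlapped, although 7 of the 9 pairings were higher at 36 weeks. Without a filter its log2 difference was 1.04 ± 0.50 (limma adjusted p of 0.193). The dimmer probe set read 41.4, 29.7 and 212 at 36 weeks, against 38.2, 45.3 and 50.8 at 7 weeks. A single array of 36 weeks stood high and the other two lay within or below the range of 7 weeks. Without a filter, this difference was 0.39 ± 0.45, and it was -0.15 without that array. The 95% interval of the brighter probe set ran from -0.090 to 2.18, so these arrays do not settle the direction for Cdh23.

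Tmc1 encodes a pore-forming subunit of the transduction channel. Its brightest probe set read 1013, 545 and 624 at 36 weeks, against 907, 594 and 765 at 7 weeks. The ages overlapped throughout. The log2 difference was -0.079 ± 0.28 (limma adjusted p of 0.855), with a 95% interval of -0.69 to 0.54, and its sign turned when 36-week array 2 or 3 or 7-week array 1 was left out (0.091, 0.00078 and 0.056). The other two Tmc1 probe sets were below the filter. One read 538, 234 and 502 at 36 weeks, against 599, 319 and 565 at 7 weeks. The other read 290, 36 and 16 at 36 weeks, against 55.9, 97.9 and 122 at 7 weeks. Neither separated the ages, and without a filter their log2 differences were -0.23 ± 0.39 and -0.16 ± 0.58. Without 36-week array 2 they were 0.11 and 0.11.

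Espn encodes espin, which bundles the actin filaments of stereocilia. Its 1 probe set was below the filter, with signals of 57.8, 26.8 and 26.6 at 36 weeks, against 477, 160 and 264 at 7 weeks. No array of 36 weeks reached any array of 7 weeks, and all signals were dim. The mean was 37.1 ± 18.0 at 36 weeks and 301 ± 162 at 7 weeks (SD, n = 3 each). In the fit without a filter, in which 19.5% of all probe sets and 9.99% in the lower direction were called, the log2 difference was -1.93 ± 0.41 (limma adjusted p of 0.00969). An offset of 1 in place of 50 moved it to -2.94, so its size is not fixed by these data.

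Myosin VIIa, encoded by Myo7a, tensions the tip link, and myosin XV, encoded by Myo15, delivers proteins to the tips of stereocilia. Myo7a read 724, 866 and 615 at 36 weeks, against 699, 541 and 465 at 7 weeks. The ages overlapped, with 8 of the 9 pairings higher at 36 weeks. The log2 difference was 0.35 ± 0.26 (limma adjusted p of 0.333), with a 95% interval of -0.23 to 0.93. Myo15 read 807, 1267 and 931 at 36 weeks, against 881, 845 and 768 at 7 weeks. A single array of 36 weeks stood above the rest. The log2 difference was 0.23 ± 0.21 (limma adjusted p of 0.419), with a 95% interval of -0.23 to 0.69.

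Myosin VI, encoded by Myo6, is the motor that walks toward the minus end of actin, holds the base of stereocilia to the cell surface and takes part in vesicle traffic at the inner hair cell synapse. It is also made by many epithelia and neurons. The brightest of its 3 probe sets read 1233, 1398 and 1093 at 36 weeks, against 1829, 2696 and 2731 at 7 weeks. The ages did not overlap, and the first array of 7 weeks lay nearest to those of 36 weeks. The log2 difference was -0.92 ± 0.17 (limma adjusted p of 0.00235). The next probe set read 512, 712 and 720 at 36 weeks, against 1321, 1552 and 1441 at 7 weeks. Here the ages were further apart, with an SD of log2 values of 0.26 at 36 weeks and 0.11 at 7 weeks. Its log2 difference was -1.10 ± 0.19 (limma adjusted p of 0.00131), a 2.22-fold lower mean. The dimmest, below the filter, read 106, 595 and 462 at 36 weeks, against 579, 674 and 536 at 7 weeks. Its ages overlapped and a single array of 36 weeks was very low. Without a filter its log2 difference was -0.79 ± 0.51 (limma adjusted p of 0.33). Without that array it was -0.16.

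Otof encodes otoferlin, the calcium sensor needed for transmitter release at the inner hair cell ribbon synapse, and is also transcribed in brain. It read 1863, 1789 and 1701 at 36 weeks, against 2428, 1984 and 2785 at 7 weeks. The ages did not overlap, but 36-week array 1 and 7-week array 2 were close. The mean was 1784 ± 80.8 at 36 weeks and 2399 ± 402 at 7 weeks (SD, n = 3 each). The log2 difference was -0.40 ± 0.14 with an adjusted p of 0.0462 by limma, at the edge of the threshold. The call was lost without the filter (0.0698), without the intensity trend (0.0727) and with the replicate number as a block (0.0615). It was also lost when any one array other than 7-week array 2 was left out, with adjusted p between 0.0717 and 0.156.

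Slc26a5 encodes prestin, the voltage-driven motor protein of outer hair cells. Its probe set was below the filter and read 300, 373 and 322 at 36 weeks, against 273, 224 and 264 at 7 weeks. All arrays of 36 weeks were above all of 7 weeks, by a narrow margin. The log2 difference without a filter was 0.33 ± 0.32 (limma adjusted p of 0.538). The median within-age SD of log2 values was 0.55 in the tenth of probe sets with signals of 246 to 408, where Slc26a5 and the brighter Cdh23 probe set lie, against 0.17 in the tenth with signals of 1590 to 2334, which holds Otof. Differences of dim probe sets are therefore less precisely measured in general. The SD of log2 values of Slc26a5 itself was smaller, 0.14 at 36 weeks and 0.13 at 7 weeks. Without the intensity trend its limma adjusted p was 0.18, still not past the threshold.

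**Figure D2:**
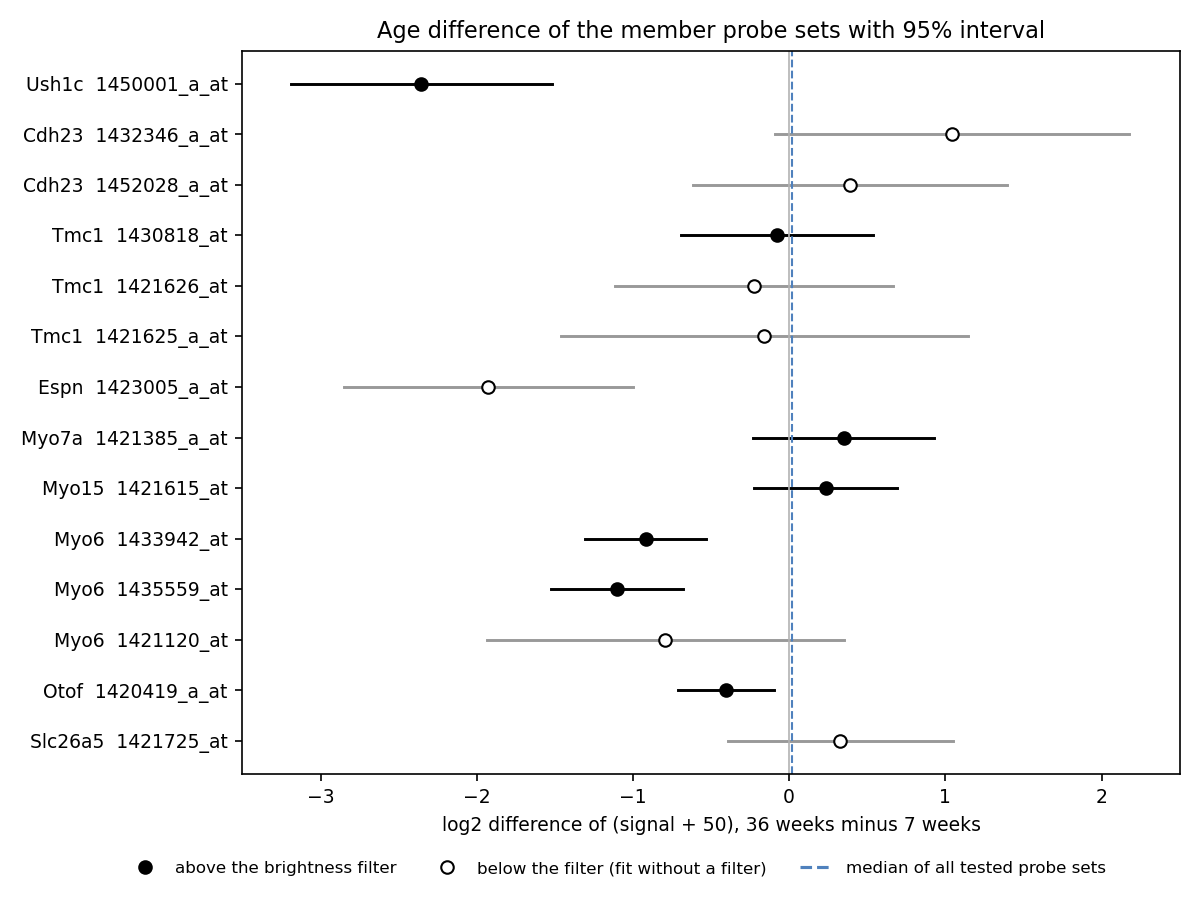
Log2 difference (36 weeks minus 7 weeks) of each member probe set with its 95% interval from limma, filled where tested and open where below the brightness filter. The intervals of Ush1c, the brighter 2 Myo6 probe sets, Otof and Espn lie below 0, and all others span 0. These intervals are not adjusted for the number of probe sets.

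Whether members changed unequally was examined by ratios within an array, in which the array's scaling nearly cancels. These 4 pairs were picked with the values in view. The log2 ratio of Ush1c to Myo7a was -1.99, -0.55 and -0.37 at 36 weeks, against 1.71, 1.64 and 1.85 at 7 weeks. The difference between the ages was -2.70 ± 0.51 (SE), and only this difference can be read, since the level of a ratio between 2 probe sets also depends on how each binds. The ratio of Myo6 (brightest probe set) to Myo7a was 0.73, 0.66 and 0.78 at 36 weeks, against 1.33, 2.22 and 2.43 at 7 weeks, a difference of -1.27 ± 0.34. The ratio of Otof to Myo7a differed by -0.75 ± 0.26 and that of Ush1c to Myo6 by -1.43 ± 0.60. Since the members of each pair were chosen for their values, these differences and their SEs are a description, and no test of them is given.

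**Figure D3:**
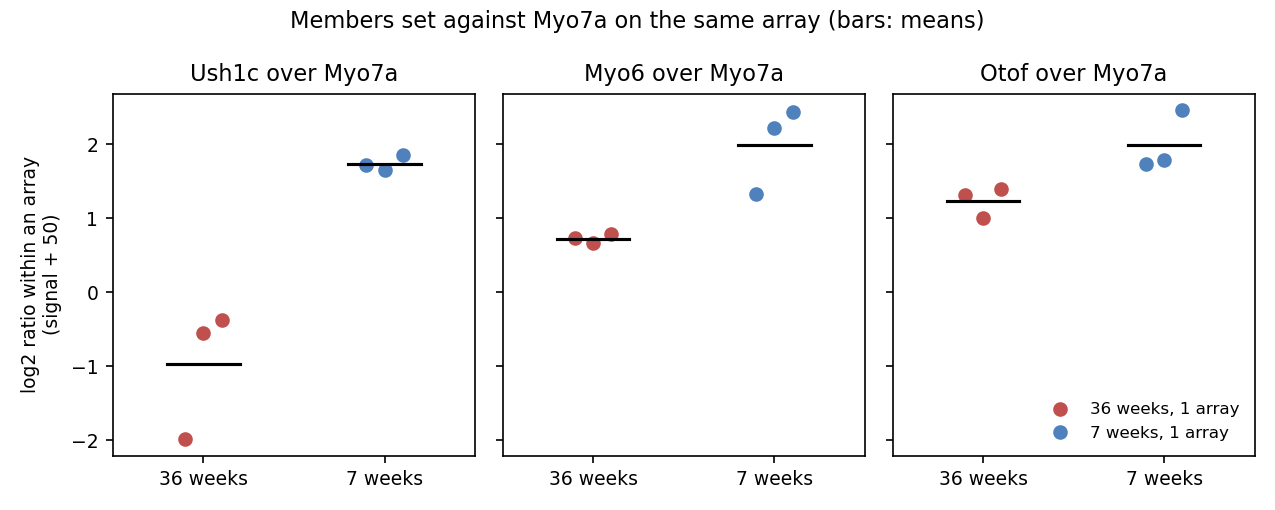
Log2 ratio of Ush1c, Myo6 and Otof (brightest probe set, signal + 50) to Myo7a on the same array, 36 weeks left of 7 weeks, with a point for each array and a bar for the mean. All 3 ratios are lower at 36 weeks, and the level of each ratio has no meaning of its own.

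The genes whose pattern over the 6 arrays was most like that of a called member were found by the Euclidean distance between log2 values, each centred on its own mean, among 12468 tested probe sets with 1 symbol. Nearest to Ush1c were Tbx18, a T-box transcription factor (distance 0.50), and Tpd52l1 (0.68). Tbx18 read 86.1, 354 and 315 at 36 weeks, against 1167, 918 and 964 at 7 weeks, with the same low first array as Ush1c. Nearest to the brightest Myo6 probe set were Tdrp (0.20) and the chromatin protein gene Hmgn3 (0.21). Nearest to the second Myo6 probe set were Sesn1, a stress-response gene (0.13), and Krt10, a keratin (0.16). Nearest to Otof were Phgdh, of serine synthesis (0.12), and Fblim1 (0.16), neither of which was called (limma adjusted p of 0.0733 and 0.129). Among the 7 tested member probe sets, the closest were Myo7a and Myo15 (0.44), closer than the called pair of Myo6 probe sets (0.59). The age difference enters every such distance, so nearness over 6 arrays says little beyond it.

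Other genes of the same structures were taken as lists, with the brightest tested probe set standing for its gene. Of 35 other hair bundle and transduction genes 13 were tested, of which 5 were higher, 2 were lower and 6 did not pass, with a median log2 difference of 0.13. The smallest p-values belonged to Actb (cytoplasmic beta-actin, 0.71 ± 0.093, adjusted p of 0.00021), Rdx (radixin, which links actin to the membrane, -0.55 ± 0.091, adjusted p of 0.00103) and Atp2b2 (the calcium pump of stereocilia, also abundant in cerebellar neurons, 0.66 ± 0.13, adjusted p of 0.00263). Actb is made by nearly every cell type. With each array centred on its median, which lowers the median difference of all tested probe sets by 0.10, 2 of these genes were higher and 3 lower, so the balance of this list depends on the scaling. Pcdh15, the lower strand of the tip link, was below the filter, with means of 489 ± 194 at 36 weeks and 390 ± 147 at 7 weeks (SD, n = 3 each).

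Of 19 other ribbon synapse genes 10 were tested, of which 3 were higher, 0 were lower and 7 did not pass, with a median of 0.33. Those called were Pclo (piccolo, 1.21 ± 0.16, adjusted p of 0.000207) and Rims2 (1.27 ± 0.19, adjusted p of 0.000477), both of the active zone, and Rab3a (a vesicle GTPase, 0.53 ± 0.079, adjusted p of 0.000484). Pclo read 2677, 2492 and 2583 at 36 weeks, against 1293, 1166 and 858 at 7 weeks, with no overlap. All 3 are also genes of neuronal synapses. Ctbp2, whose RIBEYE form makes the ribbon, was 0.31 ± 0.15 and Cacna1d, the calcium channel of inner hair cells, 0.35 ± 0.18, and neither passed (limma adjusted p of 0.15 and 0.154).

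Of 9 other outer hair cell genes only 2 were tested. Cldn9, a claudin, was 2.76-fold lower at 36 weeks (-1.43 ± 0.20, adjusted p of 0.000359 by limma), and Kcnn2, a calcium-activated potassium channel, did not pass (-0.082 ± 0.19). Arrays of whole cochlea do not show which cells the Cldn9 signal came from. Of 12 hair cell identity genes 5 were tested, of which 2 were lower and 3 did not pass, with a median of 0.33. Calb2, calretinin, was -1.14 ± 0.089 and Pvalb, parvalbumin, -0.65 ± 0.068, both calcium-binding proteins also made by neurons (adjusted p of 5.28e-06 and 4.12e-05). Barhl1, a homeobox transcription factor, was 0.42 ± 0.19 and did not pass. Of the 12, 8 had a probe set.

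**Figure D4:**
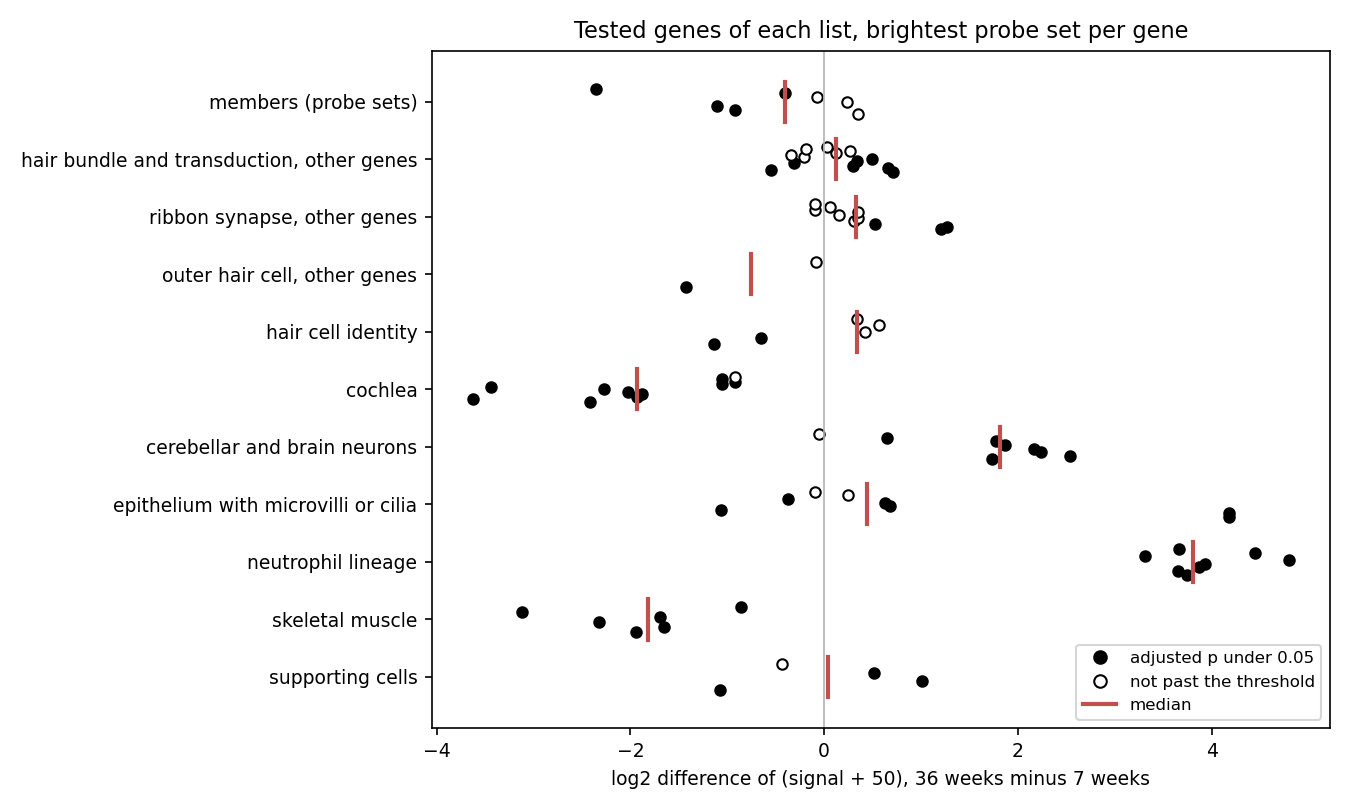
Log2 difference (36 weeks minus 7 weeks) of the tested members and of the tested genes of each list, filled where the adjusted p was under 0.05, with a red bar at the median. The 7 tested member probe sets lie between -2.35 and 0.35, and the other tested bundle and synapse genes between -0.55 and 1.27.

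Markers of the cochlea at large and of other cell types also differed between the ages, and their part in the values above was not tested. Each summed signal below takes in every gene of its list with a probe set, those below the brightness filter included. Of 12 cochlear marker genes, such as Otos, Epyc and Coch, 11 were tested and 10 were lower, with a median of -1.93. Over all 12, the summed signal was 54876 to 55969 at 36 weeks, against 234618 to 242815 at 7 weeks. Coch and Otos, with means of 21556 and 13801, made up much of the sum at 36 weeks. The sum therefore does not show that each marker was present. Kcne1 read only 85.1, 73.8 and 206 at 36 weeks, against 1602, 1645 and 1891 at 7 weeks. Of 8 tested cerebellar and brain neuron genes, led by Aldoc, Cbln1 and Gabra6, 7 were higher, with a median of 1.82 and a sum over 9 genes of 100086 to 103831 at 36 weeks, against 46041 to 50254 at 7 weeks. All 8 neutrophil genes, led by S100a9, Ltf and Mpo, were higher, with a median of 3.81 and a sum of 661787 to 705544 at 36 weeks, against 46360 to 52046 at 7 weeks. All 6 skeletal muscle genes, led by Tnni2, Acta1 and Mylpf, were lower, with a median of -1.82 and a sum of 60890 to 62586 at 36 weeks, against 194487 to 210839 at 7 weeks. Ush1c, Myo6 and Espn are also expressed in epithelia with microvilli, and of 8 tested epithelial genes, led by Muc5b, Agr2 and Cdh1, 4 were higher and 2 lower, with a median of 0.44 and a sum over 9 genes of 104670 to 108161 at 36 weeks, against 23529 to 24776 at 7 weeks. Without Muc5b and Agr2, a mucin and a secretory-cell gene, the other 7 epithelial genes summed to 20155 to 20775 at 36 weeks, against 18417 to 20529 at 7 weeks, and these ranges overlapped. That sum hides opposite changes. Krt18 (0.68 ± 0.093) and Ezr (0.63 ± 0.11) were called higher, and Cdh1 (-1.07 ± 0.12) and Epcam (-0.37 ± 0.11) were called lower. Vil1, villin of the brush border, averaged 33.1 at 36 weeks and 23.9 at 7 weeks, among the dimmest signals. Of 4 tested supporting cell genes, Slc1a3 and Lfng were higher and Fgfr3 lower (median of 0.040), with a sum over 6 genes of 5855 to 7242 at 36 weeks, against 5625 to 6925 at 7 weeks. No gene of these lists was listed at 0, which says nothing of their presence, since the lowest mean signal of any probe set was 6.85. In whole tissue, fewer hair cells, less RNA per hair cell and a different mix of the other cell types cannot be told apart.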

How the data were processed

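Single-colour Affymetrix arrays measured cochlear RNA, 3 samples at 36 weeks and 3 at 7 weeks. The deposited values are linear intensity values per probe set. How probes were summarised is not given in the sources used. In the values, arrays share a trimmed mean of 1490 to 1493 (lowest and highest 2% left out), so signals are relative and their absolute scale is unknown. Array medians were 844 to 859 at 36 weeks and 766 to 800 at 7 weeks. No array stood apart, with log2 correlations of 0.944 to 0.950 within an age.

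Genes were named from the platform annotation, in which 20380 probe sets had 1 symbol, 691 several and 1555 none. All 14 member probe sets matched the RefSeq table by Entrez identifier. Tests used log2(signal + 50), an offset that shrinks the differences of dim probe sets. The 13575 probe sets above the 40th percentile of mean signal were fitted with limma 3.58.1 (lmFit, eBayes with intensity trend, two-sided) in R 4.3.3, unpaired, with Benjamini-Hochberg adjustment over all of them. The fit was also run on simulated data with known changes, which checks the calculation and says nothing of these samples. Figures were drawn with matplotlib 3.10.9 in Python 3.11.15. The labels give no batch.

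The members and lists were chosen with earlier results of these data known. All members are named, with the 3 smallest p-values of each list and the 2 nearest patterns of each called member. Pcdh15, Ctbp2, Cacna1d and Vil1 were added for their known roles, with their values in view.

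Alternatives were offsets of 1 and 16, quantile normalization, median centring, no filter, the 60th percentile, eBayes without the trend, a replicate block, leaving out 1 array at a time, the 9 pairs at 1.5-fold, and gene means. A filter on mean log2 signal, and the other settings without a filter for dim members, were added after seeing the data. Same-numbered arrays did not deviate together, with correlations of 0.049, -0.010 and -0.0021, so the numbers were not taken as pairs.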

Additional observations from a re-analysis of the deposited data

How the results depend on the processing

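Over 193 combinations of a member probe set and an alternative, 181 kept direction and side of the threshold or, for members below the filter, moved by under 1 SD. The 8 that lost a call were all of Otof. Among tested members, the 3 that turned sign were all of the brightest Tmc1 probe set, whose values ran from -0.33 to 0.091 with 1 array left out, and the cause was not tested. Within 1 SD, 4 values of members below the filter also turned sign with 1 array of 36 weeks left out, that of the dimmer Cdh23 probe set (-0.15) and those of the dimmer Tmc1 probe sets (0.11, 0.11 and 0.30). The 1 that moved was Espn with an offset of 1 (-2.94). Ush1c ran from -2.68 to -1.84 and the called Myo6 probe sets from -1.10 to -0.82 and from -1.21 to -0.96, all past the threshold. The mean of all Myo6 probe sets was -0.94. With all 9 pairs at least 1.5-fold in one direction, 2 member probe sets and 1473 of all tested (10.9%) were called, against 4 and 4665 by limma, since this rule demands a size. Leaving out 1 array gave 3 to 4 member calls and 3707 to 4083 of all. The replicate block gave 3 and 4375, losing Otof and changing no other member call. The labels do not say whether the replicate numbers pair samples. Median centring called 1738 higher and 3088 lower over all tested probe sets, against 2267 and 2398. Low signal limits what can be said of Cdh23, Espn and Slc26a5.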

Other observations

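Among hair cell and synapse genes below the brightness filter, Pou4f3 and Bsn stood higher at 36 weeks in the fit without a filter. That fit called 19.5% of all probe sets in either direction, with 9.99% lower. Of the hair cell identity genes 8 had a probe set and 5 were tested. Of the other ribbon synapse genes 14 had a probe set and 10 were tested. Pou4f3 and Bsn were picked after their values were seen. Pou4f3, a transcription factor that hair cells need to survive, read 681, 824 and 552 at 36 weeks, against 17.3, 231 and 281 at 7 weeks (1.98 ± 0.58, limma adjusted p of 0.0415). Bsn, bassoon, which anchors the ribbon and is also found at neuronal active zones, read 733, 524 and 583 at 36 weeks, against 290, 67.8 and 147 at 7 weeks (1.73 ± 0.43, limma adjusted p of 0.0213). The tested brain neuron genes had a median log2 difference of 1.82, and their part in these values was not tested. Among them, 7 were higher and Snap25 did not pass (-0.057 ± 0.065, limma adjusted p of 0.53). Other genes below the filter went the other way. Cabp2, a calcium-binding protein of the hair cell synapse, read 256, 237 and 258 at 36 weeks, against 311, 887 and 647 at 7 weeks, and did not pass (-1.04 ± 0.40, limma adjusted p of 0.104). Gfi1, of the hair cell identity genes, read 322, 314 and 472 at 36 weeks, against 662, 493 and 919 at 7 weeks. Its ages did not overlap, and it did not pass (-0.80 ± 0.33, limma adjusted p of 0.125).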
